A study of Homo sapiens with 2 samples.

Results

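Axon guidance ligands and receptors are 77 of the 19607 genes listed for CWR22rv1 cells, a human prostate cancer line. They were chosen by gene symbol, as the semaphorins of classes 3 to 7, plexins, neuropilins, ephrins and EPH receptors, netrins, UNC5 receptors, SLIT and ROBO genes, FLRT1, FLRT2, FLRT3, DCC and NEO1. By role, 40 are ligands and 35 are receptors. The other 2, UNC50 and UNC5CL, match the symbol rule by name and have no guidance role. RNA sequencing compared 1 library of Akt1/2 DKO cells, in which Akt1 and Akt2 were targeted together by CRISPR/Cas9, with 1 library of control cells, labelled wild type. Single-cell clones were isolated after puromycin selection, so the Akt1/2 DKO library can carry features of a clone, and an effect of the clone and an effect of the knockout cannot be told apart. With 1 library per condition there is no replicate check, and no p-value is given.

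Guidance molecules steer growing axons and migrating cells by attraction or repulsion. Secreted semaphorins of class 3 bind neuropilins, which pair with plexins as signalling subunits, and most membrane-bound semaphorins bind plexins directly. Ephrins are held at the cell surface and signal in both directions when they meet EPH receptor tyrosine kinases on a neighbouring cell. Netrins bind DCC, NEO1 and UNC5 receptors, SLIT proteins bind ROBO receptors, and FLRT proteins bind UNC5 receptors and latrophilins. The same molecules act in epithelia and tumours on adhesion, migration and vessel growth.

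Depth was close to even, at 9970820 estimated reads for control and 10718650 for Akt1/2 DKO cells. Fold changes are ratios of Akt1/2 DKO to control in reads normalized by TMM, with 95% exact intervals that cover counting error only. A gene with 0 reads in 1 library was set to 3 reads, the floor, and its fold is a bound. The targeted genes had fewer reads in the library labelled as knockout, with 2645 and 591 reads for AKT1 and 2362 and 667 for AKT2 in control and Akt1/2 DKO. Of 10 prostate luminal markers, 10 had at least 10 reads, 5 were lower and 3 were higher by at least 1.5-fold. Endothelial markers, which could bring their own guidance genes, summed to 2 reads in control and 3 in Akt1/2 DKO cells over 5 genes. Fibroblast markers summed to 143 and 159 reads over 8 genes, with 2 of the 3 compared higher and 1 lower. LUM had 5 and 35 reads, COL1A1 had 55 and 106, and COL3A1 had 74 and 9, while DCN (3 and 0 reads) and THY1 (1 and 0) were not compared. Neuronal markers summed to 1721 and 2952 reads over 8 genes. Of these, ELAVL4 had 0 reads in both libraries, and RBFOX3 had 1 and 3. Of the 4 neuronal markers compared, 2 were higher and 0 lower by at least 1.5-fold. MAP2 had 77 and 450 reads and SNAP25 had 65 and 320, while SYP (752 and 998) and TUBB3 (825 and 1177) were within 1.5-fold. Some neuronal and some fibroblast markers were thus higher in Akt1/2 DKO, and their part in the results was not tested.

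Guidance genes differed between the libraries in both directions. Of the 77 genes, 64 had at least 10 reads in both libraries together and were compared. A change of 1.5-fold or more was seen in 46 of the 64, of which 25 were higher and 21 lower in Akt1/2 DKO. Over all 13318 genes compared the share was 30.9%, with 15.9% higher and 15% lower, against 71.9% of the guidance genes. The interval left out no change in 42 of the 46, a share near that of all genes (3600 of 4117). At 2-fold or more, 32 guidance genes had changed (18 higher, 14 lower), against 17.9% of all genes (10% higher, 7.94% lower). Among genes with at least 100 reads together, 29 of 43 guidance genes (67.4%) differed by at least 1.5-fold, against 23.2% of all genes (11.3% higher, 11.9% lower). At that depth 20 had changed 2-fold or more (11 higher, 9 lower), against 11.1% of all genes (6.01% higher, 5.05% lower). The median size of the change, without its sign, was 0.95 on the log2 scale for guidance genes and 0.33 for all genes compared. In these bulk libraries, a change in the number of cells that express a gene and a change in RNA per cell cannot be told apart.

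Ligands and receptors leaned in opposite directions. Of the 35 ligands compared, 15 (42.9%) were at least 1.5-fold higher and 9 (25.7%) lower, with a median log2 change of 0.36. Of the 27 receptors compared, 9 (33.3%) were higher and 12 (44.4%) lower, with a median of -0.46. Over all genes compared 15.9% were higher and 15% lower, with a median of 0.01, so both roles exceeded these shares in both directions. The receptor median rests on chromosome 3, where 8 of the receptors compared lie. Without those genes 8 receptors (42.1%) were higher and 7 (36.8%) lower, and the median was -0.07. Of all genes off chromosome 3, 16.3% were higher and 13.1% lower. The ligand median without chromosome 3 was 0.34. Some genes, such as FLRT2 and SLIT2, passed the read filter only through the library where they were high. With at least 10 reads required in each library, 8 of 22 ligands were higher and 5 lower, with a median of 0.34. Of 21 receptors, 4 were then higher and 11 lower, with a median of -0.62. No share of all genes is given for that filter.

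**Figure D1:**
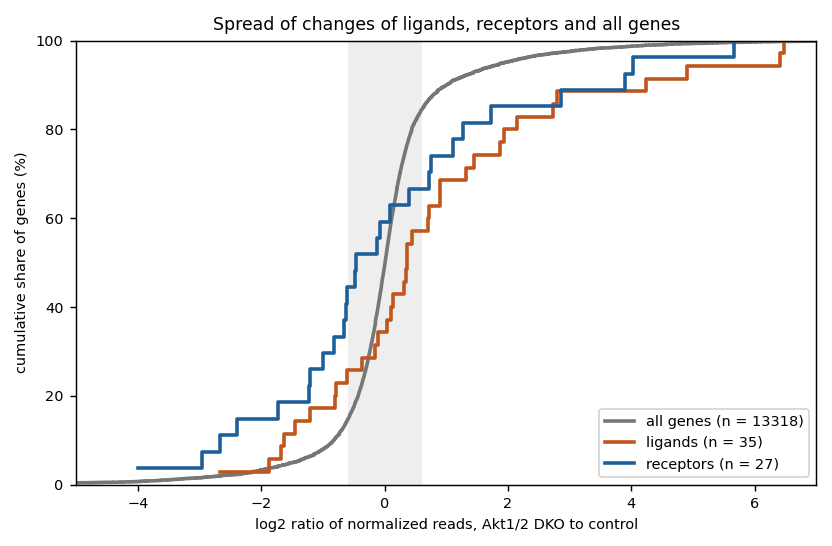
Cumulative share (%) of all genes, ligands and receptors against the log2 ratio of normalized reads, Akt1/2 DKO to control, with changes under 1.5-fold shaded. The curve of all 13318 genes is steep around 0, while those of the 35 ligands and the 27 receptors are spread to both sides, the ligands to the right of the receptors over most of the range.

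Some guidance genes were nearly silent in control cells and had more reads in Akt1/2 DKO cells. In all, 10 of the 77 guidance genes (13.0%) had at most 3 reads in the control library and more in the Akt1/2 DKO library, against 3.45% of all genes listed. The opposite case held for 0 of the 77, against 2.33% of all genes. Of the 10, 7 were ligands (FLRT2, SLIT2, SEMA3D, SEMA6D, NTNG2, SEMA5B and NTN4) and 3 were receptors (NRP1, NRP2 and PLXNA4). With at least 30 reads required in the Akt1/2 DKO library, 4 of the 64 genes compared remained (FLRT2, SLIT2, SEMA3D and NRP1), or 6.25%, against 1.03% of all genes compared. The reverse held for 0 of the 64, against 0.405%. Both reverse shares over all genes are low, so a count of 0 among so few guidance genes says little. SEMA5B (1 and 5 reads), NTN4 (3 and 4) and PLXNA4 (0 and 4) passed the limit of 3 reads by little and were too shallow for a fold.

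Windows upstream of a transcription start are shown for the guidance genes with the highest and the lowest log2 change. FLRT2 (ENSG00000185070) lies on chromosome 14 from 85530144 to 85654426, and PLXNA2 (ENSG00000076356) lies on chromosome 1 from 208022242 to 208244320 on the minus strand. Sequences are from RefSeq on GRCh38.p14, 5′ to 3′ along each gene, and end at the base before an annotated start, at chr14:85533099-85533348 for FLRT2 on the plus strand and at chr1:208244385-208244634 for PLXNA2 on the minus strand. Capitals mark GTAAACA, a core element that FOXO factors, which Akt phosphorylates, can bind.
FLRT2: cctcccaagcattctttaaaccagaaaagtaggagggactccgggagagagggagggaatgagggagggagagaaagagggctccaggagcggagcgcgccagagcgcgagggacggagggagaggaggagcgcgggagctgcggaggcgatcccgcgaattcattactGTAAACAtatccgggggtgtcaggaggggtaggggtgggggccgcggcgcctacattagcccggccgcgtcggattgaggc
PLXNA2: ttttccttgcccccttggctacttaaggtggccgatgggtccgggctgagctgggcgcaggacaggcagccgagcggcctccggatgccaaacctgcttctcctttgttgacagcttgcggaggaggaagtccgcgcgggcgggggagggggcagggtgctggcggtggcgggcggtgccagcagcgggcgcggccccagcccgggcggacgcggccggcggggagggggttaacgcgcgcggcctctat

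Promoter windows of 300 bases, 250 before and 50 after each start, were matched for 66 of the 77 guidance genes, with 103 starts. No window was matched for EFNB3, EPHA10, NRP1, NTN1, NTN3, NTNG2, SEMA3A, SEMA6A, SEMA6B, UNC5B and UNC5D. GTAAACA was present on either strand in 4 of the 66 genes (6.06%), and in 3.82% of the 14563 listed genes with a window. Those 4 were FLRT2, SEMA3E, SEMA4B and SEMA5B. FLRT2 and SEMA3E were far higher in Akt1/2 DKO, SEMA4B had 190 and 225 reads, and SEMA5B had 1 and 5. In FLRT2 the element begins 81 bases before the start shown. RefSeq gives 3 starts for FLRT2, and the window with the element was printed. That window lies inside the gene, in an intron, as 0 exons of GENCODE release 29 overlap it, and the PLXNA2 window lies before the gene and overlaps 0 exons. A match of letters is a description and not a bound site, and a part of FOXO or of other factors in these values was not tested. The windows of guidance genes held a median of 22 CpG dinucleotides, near the 21 of all listed genes.

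Levels were compared between genes in FPKM, which is scaled by length. In control cells EPHA3, a receptor for ephrins of class A, was the most abundant receptor at 190.89 FPKM and held 45.7% of the summed FPKM of the 35 receptors. In Akt1/2 DKO cells it stood at 34.43 FPKM, or 15.4%, below PLXNB2. Among ligands, SEMA6A, a transmembrane semaphorin that binds class A plexins, ranked 1 in control cells at 47.58 FPKM and 3 in Akt1/2 DKO cells at 17.55. EFNA1, an ephrin anchored in the membrane by a lipid, ranked 3 and 1, at 25.74 and 33.80 FPKM. Summed over all ligands the level was 189.23 FPKM in control and 187.52 in Akt1/2 DKO cells. Summed over all receptors it was 417.55 and 223.15 FPKM, and 226.66 and 188.72 without EPHA3. Most of the difference in the receptor sum was thus in EPHA3, whereas the ligand sums lay close together.

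**Figure D2:**
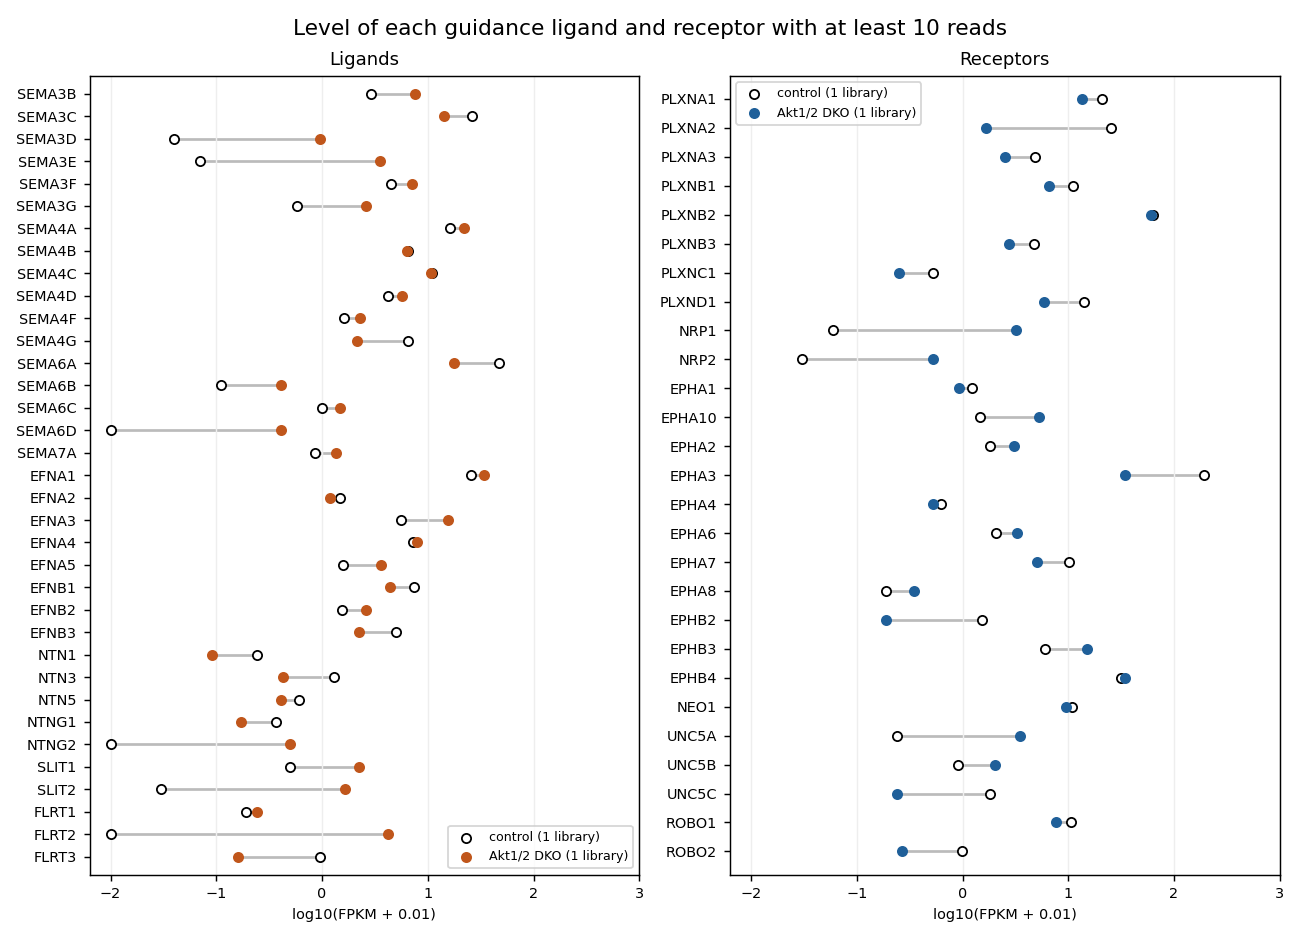
Level of each of the 35 ligands and 27 receptors with at least 10 reads, as log10(FPKM + 0.01), in the control library (open circles) and the Akt1/2 DKO library (filled circles). EPHA3 and PLXNA2 move far to the left in Akt1/2 DKO, while FLRT2, SLIT2, SEMA3E and NRP1 move from the left edge to the middle of the range.

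The secreted semaphorins compared were higher in Akt1/2 DKO cells with 1 exception. Of 6 class 3 semaphorins compared, 5 were higher and 1 was lower by 1.5-fold or more, against 15.9% higher and 15% lower over all genes. SEMA3E, a ligand of PLXND1 that repels endothelial cells, had 4 reads in control and 132 in Akt1/2 DKO cells, 29.8-fold higher (95% interval 11.4 to 111). SEMA3D had 2 and 42 reads, 18.9-fold higher (4.93 to 162). SEMA3G, which signals through NRP2, had 28 and 114 reads, 3.67-fold higher (2.41 to 5.77). The increases in the first pair start from very few control reads, so their size is poorly fixed. SEMA3B and SEMA3F, known as candidate tumour suppressors of the short arm of chromosome 3, were higher by less. SEMA3B had 64 and 177 reads, 2.49-fold higher (1.86 to 3.37), and SEMA3F had 125 and 225, 1.62-fold higher (1.30 to 2.04). SEMA3C, by far the most abundant of the class and known to act in prostate cancer growth, went the other way, with 793 and 504 reads, 1.74-fold lower (1.56 to 1.95). SEMA3A had 2 and 0 reads and was not compared.

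The neuropilins, the ligand-binding partners of class 3 semaphorins, were both nearly absent from control cells and present in Akt1/2 DKO cells. NRP1, which also serves as a co-receptor for VEGF, had 2 reads in control and 113 in Akt1/2 DKO cells, 51.0-fold higher (13.8 to 426). NRP2 had 1 and 18 reads, 16.2-fold higher (2.56 to 676). At 3.20 and 0.51 FPKM in Akt1/2 DKO, both remained far below PLXNB2.

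The plexins compared were lower, except PLXNB2. All 8 plexins compared lay below 0, and 7 of the 8 were lower by at least 1.5-fold, against 15% of all genes. Of the 7, PLXNA1, PLXNB1 and PLXND1 lie on chromosome 3, where 46.7% of all genes were lower. PLXNA4, with 0 and 4 reads, was not compared. PLXNA2, a signalling subunit for SEMA3 and SEMA6 proteins, had 2931 reads in control and 204 in Akt1/2 DKO cells, 15.9-fold lower (13.8 to 18.4). It ranked 4 among the receptors in control cells, at 25.51 FPKM, and 19 in Akt1/2 DKO cells, at 1.65. PLXND1, the receptor of SEMA3E, had 814 and 392 reads, 2.30-fold lower (2.04 to 2.60). PLXNA3 had 531 and 294 reads, 2.00-fold lower (1.73 to 2.32), and PLXNA1 had 1879 and 1326, 1.57-fold lower (1.46 to 1.69). Of the class B plexins, PLXNB1, which binds SEMA4 proteins, had 779 and 491 reads, 1.76-fold lower (1.57 to 1.97). PLXNB3, a receptor of SEMA5A, had 252 and 182, 1.54-fold lower (1.26 to 1.87). PLXNB2, the most abundant plexin, differed little, with 3745 and 3956 reads and a log2 change of -0.07 (-0.13 to -0.0049). PLXNC1, the receptor of SEMA7A, had 25 and 18 reads, and its interval on the log2 scale (-1.58 to 0.31) included no change. Both PLXNB3 and PLXNC1 lie close to the limit, and under total count or upper quartile scaling they fell within 1.5-fold, which left 5 of the 8 plexins lower.

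The membrane-bound semaphorins showed less of a common direction. Of 6 class 4 semaphorins, which bind class B plexins, 5 were within 1.5-fold. SEMA4A had 499 and 709 reads, 1.28-fold higher (1.14 to 1.44), and SEMA4C had 302 and 344, 1.03-fold higher (0.88 to 1.20). SEMA4D, known from immune cells, had 164 and 248 reads, SEMA4B had 190 and 225, and SEMA4F had 69 and 71, and SEMA4B, SEMA4C and SEMA4F had opposite signs in reads and FPKM. The exception was SEMA4G, with 145 and 44 reads, 3.65-fold lower (2.59 to 5.24). Among class 6 semaphorins, SEMA6A had 2487 and 1002 reads, 2.75-fold lower (2.56 to 2.96). Its less abundant relatives SEMA6B (4 and 17 reads) and SEMA6D (0 and 22 reads, at least 6.61-fold higher) were higher, while SEMA6C had 48 and 68 reads. SEMA7A, a lipid-anchored semaphorin that also binds integrins, had 18 and 37 reads, 1.85-fold higher (1.03 to 3.46). SEMA5A had 0 reads in both libraries.

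**Figure D3:**
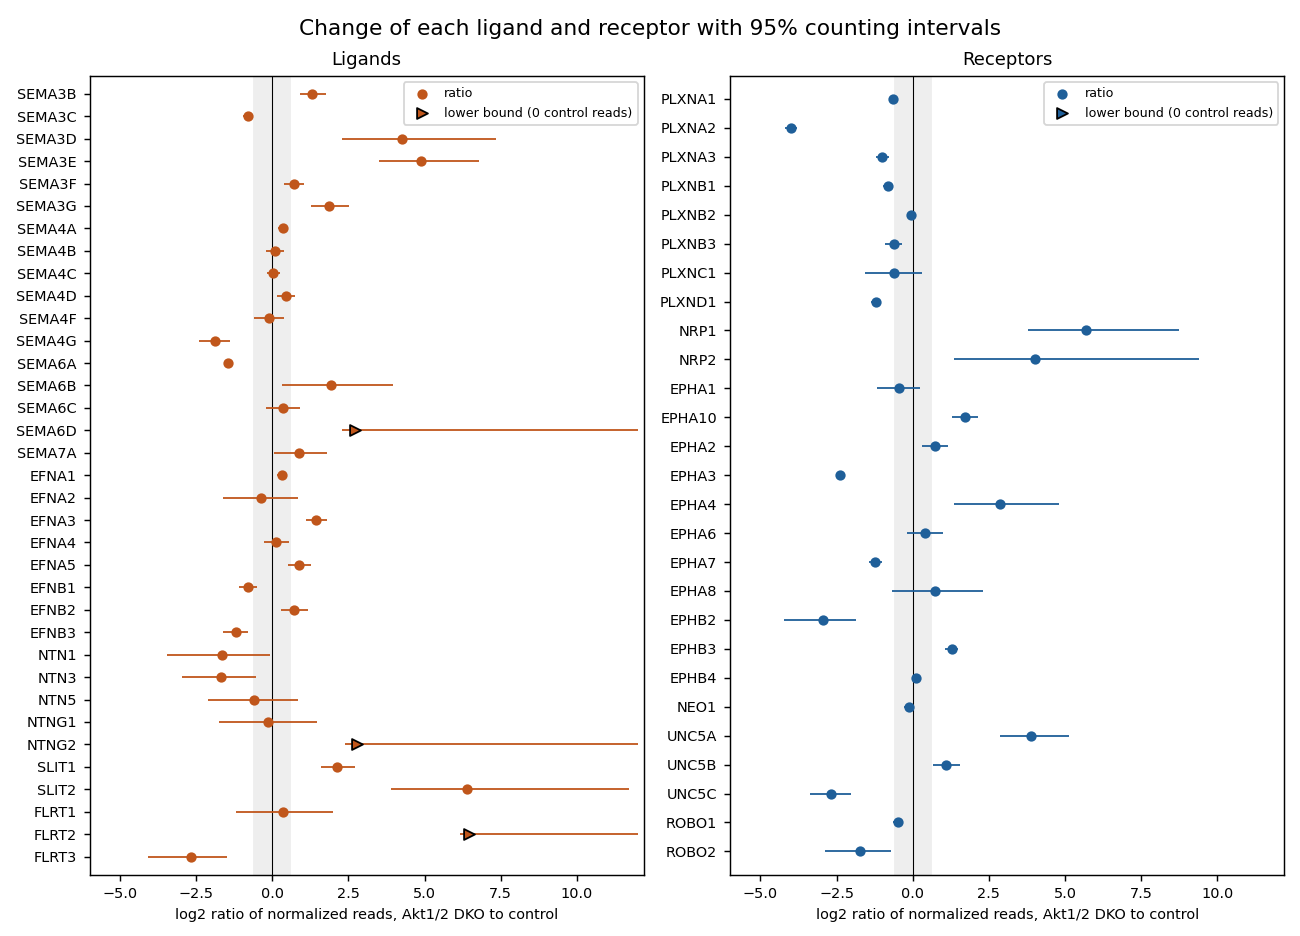
Log2 ratio of normalized reads, Akt1/2 DKO to control, for each ligand and receptor with at least 10 reads, with 95% exact counting intervals as lines, cut at the right edge where they have no upper limit. The shaded band is a change under 1.5-fold, and arrowheads are lower bounds for genes with 0 control reads. All 8 plexins lie to the left of 0, and both neuropilins and both SLIT genes lie far to the right.

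Among EPH receptors and ephrins, the most abundant receptor of control cells was lower in Akt1/2 DKO. EPHA3 (ENSG00000044524) had 7506 reads in control and 1576 in Akt1/2 DKO cells, 5.28-fold lower (5.00 to 5.58). EPHA7, another receptor of ephrins A, had 593 and 280 reads, 2.35-fold lower (2.03 to 2.72). In contrast EPHA10, which lacks an active kinase, had 60 and 219 reads, 3.29-fold higher (2.46 to 4.46), and EPHA2, often raised in carcinomas, had 72 and 131, 1.64-fold higher (1.22 to 2.22). Of 8 EPHA receptors compared, 4 were higher and 2 lower, against 15.9% and 15% of all genes, and 2 of the 4 are uncertain. EPHA4, counted among the 4 with 4 and 32 reads, stood at 0.61 and 0.51 FPKM, so its direction depends on the unit and is uncertain. EPHA8, also among the 4, had 7 and 13 reads and an interval that included no change. EPHA1 (41 and 33 reads) and EPHA6 (44 and 64) were within 1.5-fold, and EPHA5 had 0 and 3 reads.

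Ephrins A, the ligands of these receptors, were higher or within 1.5-fold. EFNA3 had 99 and 300 reads, 2.73-fold higher (2.17 to 3.47), and EFNA5 had 84 and 173, 1.86-fold higher (1.42 to 2.44). EFNA1 had 452 and 625 reads, 1.25-fold higher (1.10 to 1.41), and EFNA4 had 88 and 107, 1.10-fold higher (0.82 to 1.47). EFNA1, EFNA3 and EFNA4 lie side by side on chromosome 1, and of this cluster EFNA3 alone passed 1.5-fold. EFNA2 had 14 and 12 reads.

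Class B receptors and ligands each had members that were higher and members that were lower. EPHB3, known from intestinal epithelium, had 258 and 691 reads, 2.42-fold higher (2.09 to 2.80). EPHB2 had 56 and 8 reads, 7.76-fold lower (3.68 to 18.9). EPHB4, which was next to EPHA3 in Akt1/2 DKO cells at 34.30 FPKM, had 1334 and 1577 reads and a log2 change of 0.09 (-0.01 to 0.20). EPHB1 (1 and 0 reads) and EPHB6 (1 and 1) were at or under the floor in both libraries. Of the ephrins B, which span the membrane, EFNB3 had 160 and 77 reads, 2.30-fold lower (1.74 to 3.06), and EFNB1 had 245 and 157, 1.73-fold lower (1.41 to 2.13). EFNB2, the ligand preferred by EPHB4, had 68 and 124 reads, 1.64-fold higher (1.21 to 2.24).

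The UNC5 receptors, which mediate repulsion by netrins and can signal cell death without ligand, went in different directions. UNC5A had 8 reads in control and 132 in Akt1/2 DKO cells, 14.9-fold higher (7.34 to 35.2), and UNC5B had 61 and 145, 2.14-fold higher (1.58 to 2.94). UNC5C had 138 and 24 reads, 6.37-fold lower (4.11 to 10.3). UNC5A thus had the fewest reads of these 3 in control cells, and UNC5C had the fewest in Akt1/2 DKO cells. NEO1, which binds netrins and RGM proteins, had the most reads of the netrin receptors in each library, with 577 and 586 reads and a log2 change of -0.13 (-0.29 to 0.04). DCC had 0 and 1 reads, and UNC5D had 0 in both libraries. Netrins themselves were scarce, with 62 and 57 reads summed over 6 genes. NTN1 had 14 and 5 reads, 3.10-fold lower (1.06 to 11.0), and NTN3 had 26 and 9, 3.20-fold lower (1.45 to 7.77). NTN5 (11 and 8 reads) was just past 1.5-fold, with an interval that included no change. NTNG2, a membrane-anchored netrin that binds LRRC4, had 0 and 23 reads, at least 6.92-fold higher. NTNG1 had 8 reads in both libraries but 0.36 and 0.16 FPKM, so its change depends on the unit.

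Both SLIT genes compared were higher, and of the ROBO genes compared 1 was lower and 1 was within 1.5-fold. SLIT2, a secreted repellent often silenced in carcinomas, had 1 read in control and 94 in Akt1/2 DKO cells, 84.8-fold higher (14.9 to 3384). SLIT1 had 34 and 166 reads, 4.40-fold higher (3.03 to 6.57), and SLIT3 had 0 in both libraries. Their receptor ROBO1 had 597 and 474 reads, 1.40-fold lower (1.24 to 1.58), which is within 1.5-fold. ROBO2 had 33 and 11 reads, 3.33-fold lower (1.64 to 7.29). ROBO3 (2 and 1 reads) and ROBO4 (0 in both libraries), the latter an endothelial receptor, were not compared.

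FLRT2, an adhesion protein shed from the cell surface that binds UNC5 receptors, had 0 reads in control and 295 in Akt1/2 DKO cells, at least 88.7-fold higher with 71.7 as the lower limit of its interval. FLRT3 had 40 and 7 reads, 6.34-fold lower (2.81 to 16.8), and FLRT1 had 7 and 10. With the FLRT genes counted as receptors, 10 of 30 receptors were higher and 13 lower, and the ligands were 14 higher and 8 lower of 32. Of the symbols with no guidance role, UNC50 had 244 and 285 reads and UNC5CL had 9 and 15.

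Other genes of the pathway were taken from a list of co-receptors, further ligands and intracellular effectors. Of 14 co-receptors and further ligands, 11 were compared, 6 were higher and 2 lower by at least 1.5-fold, against 15.9% higher and 15% lower over all genes. L1CAM, an adhesion molecule that joins NRP1 in the receptor of SEMA3A, had 50 and 283 reads, 5.11-fold higher (3.77 to 7.04). RGMB, a ligand of NEO1, had 241 and 560 reads, 2.10-fold higher (1.80 to 2.45). ADGRL3, a latrophilin that binds FLRT proteins, had 97 and 7 reads, 15.4-fold lower (7.18 to 39.2).

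Of 53 intracellular effectors, 50 were compared, and 11 (22%) were higher and 9 (18%) lower by 1.5-fold or more. These shares lie near the 15.9% and 15% of all genes, and the median log2 change was -0.13. The collapsin response mediators, which carry semaphorin signals to microtubules, included DPYSL4 with 15 and 313 reads, 18.8-fold higher (11.2 to 34.0), and DPYSL3 with 851 and 2071, 2.20-fold higher (2.03 to 2.38). Of the same family, DPYSL5 had 240 and 533 reads, 2.00-fold higher (1.72 to 2.34), while DPYSL2 (1129 and 1140 reads) and CRMP1 (52 and 44) were within 1.5-fold. FYN, a kinase that acts below plexins and DCC, had 55 and 194 reads, 3.18-fold higher (2.35 to 4.37). SRGAP1, a GTPase regulator bound by ROBO1, had 145 and 441 reads, 2.74-fold higher (2.27 to 3.33). PAK1, a kinase activated by RAC1, had 771 and 334 reads, 2.56-fold lower (2.25 to 2.92). ABLIM3 (125 and 23 reads) and MICAL2 (384 and 202), a monooxygenase that acts on actin, were also lower. Of the widely used GTPases, RHOA, on chromosome 3, had 6747 and 4928 reads, 1.52-fold lower (1.46 to 1.58), and RAC1 (3264 and 2999) and CDC42 (2799 and 2182) were within 1.5-fold.

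Chromosome 3 holds 13 of the 77 guidance genes, and its genes were lower as a whole in the Akt1/2 DKO library. Over 754 compared genes of that chromosome the median log2 change was -0.54, with 46.7% lower and 8.75% higher by at least 1.5-fold, while over the 12564 other genes the median was 0.03. The guidance genes there fell on both sides. Its 3 ligands compared, SEMA3B, SEMA3F and SEMA3G, were all higher, with a median of 1.32. Of its 8 receptors compared, EPHA3, PLXNA1, PLXNB1, PLXND1 and ROBO2 were lower, EPHB3 was higher, and EPHA6 and ROBO1 were within 1.5-fold. The values of PLXNA1 (-0.65), PLXNB1 (-0.81) and ROBO1 (-0.48) lay close to the chromosome's median, and EPHA3 (-2.40) lay far below it. The part of the chromosome's shift in these values was not tested. PLXNA2, PLXNA3 and UNC5C lie on other chromosomes.

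**Figure D4:**
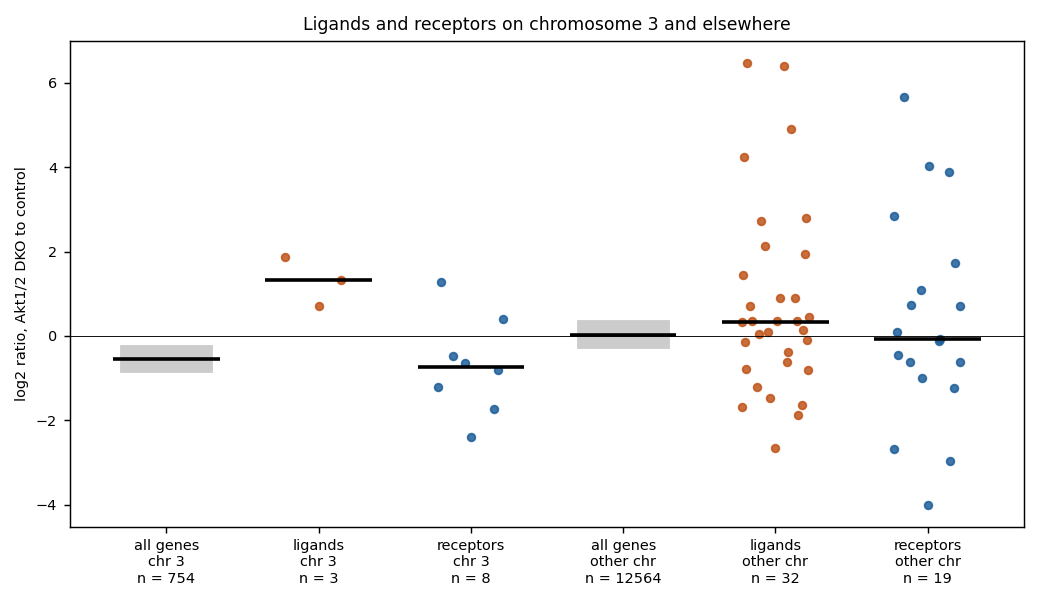
Log2 ratio of normalized reads, Akt1/2 DKO to control, on chromosome 3 (left) and on other chromosomes (right). Points are single ligands or receptors, black lines are medians, and grey boxes span the middle 50% of all genes. On chromosome 3 the median of all genes is -0.54, the 3 ligands lie above 0, and 6 of the 8 receptors lie below it.

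For the 24 guidance genes of the naming rule that differed by at least 1.5-fold, the nearest compared gene on each side was looked up. Of these 48 neighbours, 30 were within 1.5-fold, 12 had changed the same way and 6 the other way. The 37.5% that had changed in either direction stand beside 30.9% of all genes, of which 15.9% were higher and 15% lower. SEMA3D and SEMA3E were counted as neighbours of each other. On chromosome 3, where 46.7% of genes were lower, IFT122, C3orf38, PROS1 and CHCHD6 changed the same way, and PHF7 and GNAI2 the other way. On chromosome 7, the compared genes SEMA3E, SEMA3D and GRM3 (2 and 142 reads) follow each other and were all higher, while SEMA3C lies between CD36 (796 and 1 reads) and HGF (1744 and 84 reads), which were both lower. FLRT2 lies between SEL1L (966 and 1140 reads), within 1.5-fold, and GALC (143 and 51 reads), which was lower.

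The measurement has limits in some of these genes. Of the 64 genes compared, 22 have annotated exons that overlap those of another gene, 16 of them on the opposite strand, and the use of strand in counting is not given in the sources used here. The overlaps include SEMA6A, SEMA4G, PLXNA3, NRP1, UNC5A and UNC5C on the opposite strand, and EFNA3 and SLIT1 with genes that run through them on the same strand.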

How the data were processed

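RNA was sequenced from Akt1/2 DKO and control cells, as 1 library each. The authors deposited estimated counts per gene, not normalized, and FPKM values for the same libraries. Per the labels, fastp 0.20.0, TopHat, Cufflinks and edgeR were used with GRCh38.p10, and the role of each, the annotation and the use of strand are not given in the sources used here. The authors' table of their own comparison holds fold changes, p-values, FDRs and marked genes. It was not used, nor were their counts of genes per ontology class and their correlation of the libraries.

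Estimated counts were rounded, and genes with at least 10 reads in both libraries together were compared (13318 genes). TMM (edgeR 4.0.16, R 4.3.3) gave a ratio of effective library sizes of 1.11 for Akt1/2 DKO over control. Intervals are exact (Clopper-Pearson, scipy 1.17.1, Python 3.11.15). The floor of 3 reads is 0.301 CPM in control and 0.280 in Akt1/2 DKO. The scripts were tested on simulated data. Positions are from GENCODE release 29, in which 19571 identifiers matched. Cells of each condition came as 1 library, so no batch could be separated.

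The guidance genes and lists were chosen with earlier results of these data known. Values in each library were set to be given for genes with at least 100 reads together and a 2-fold change, those with at most 3 reads in 1 library and at least 30 in the other, and the 5 ligands and 5 receptors highest in mean FPKM. Other guidance genes were named to complete each family, after their values were seen, and so were CD36, HGF, GRM3, SEL1L, GALC, RAC1, CDC42, RHOA, DPYSL2 and CRMP1. Alternatives were other scalings (total count, DESeq2 1.42.0 size factors, upper quartile), FPKM, read filters, a 2-fold limit, intervals that leave out no change, chromosome 3 left out, and the role of FLRT genes.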

Additional observations from a re-analysis of the deposited data

How the results depend on the processing

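The number of guidance genes that differed by at least 1.5-fold was 46 of 64 (71.9%), against 30.9% of all genes. When each library had to hold 10 reads or more, it became 28 of 44 (12 higher, 16 lower). No share of all genes is given for that filter. When the sum of both libraries had to reach 100 reads, it became 29 of 43 (15 higher, 14 lower). That is 67.4%, against 23.2% of all genes. For ligands the number was 24 of 35 (15 higher, 9 lower). Under the same filters it became 13 of 22 (8 higher, 5 lower) and 14 of 22 (9 higher, 5 lower). Each filter leaves fewer genes to compare. Requiring reads in each library also removes the genes that were nearly silent in control cells. All other alternatives left these numbers and that of receptors within 1.5 times, from 32 to 47 for all guidance genes, from 16 to 25 for ligands and from 15 to 23 for receptors. The median log2 change of ligands lay between 0.34 and 0.42 under all alternatives run. That of receptors lay between -0.62 (at least 10 reads in each library) and -0.07, and was nearest to 0 without chromosome 3. The median of all guidance genes was 0.11. It lay between -0.02 (at least 10 reads in each library) and 0.26 (no read filter). Of 115 values of single named genes under other scalings and FPKM, 114 stayed within their counting interval or bound. The other, EPHA7 at -1.02 in FPKM, moved past it. A change of scaling shifts all genes alike by a small amount, so those values say little about single genes. The FPKM values come from the same 2 libraries. SEMA4C changed sign inside its interval, from 0.04 in reads to -0.02 in FPKM. Over 61 guidance genes with FPKM above 0 in both libraries, 1 gene past 1.5-fold in reads, EPHA4, had the opposite sign in FPKM. Leaving out UNC50 and UNC5CL, chosen after seeing the data, gave 45. Depth limits the size of changes that start from under 10 reads, as in SLIT2, NRP2 and SEMA3D. No paired analysis was possible because there was only 1 library for each condition.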
